A study of Mus musculus with 3 samples.

Results

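Chondrocytes and osteoblasts, the cells that make cartilage matrix and bone matrix, were picked out of sequenced single cells of the bone marrow stroma by the counts of 4 matrix genes. A cell was called a chondrocyte where it held at least 2 unique molecular identifiers (UMIs, each counting 1 captured RNA molecule) of Acan and at least 5 of Col2a1. A cell was called an osteoblast where it held at least 20 UMIs of Bglap, at least 50 of Col1a1 and under 2 of Acan. These limits found 40 chondrocytes and 36 osteoblasts, 76 of the 24081 cells kept from all 30739 barcodes. Kept cells held between 200 and 10000 genes and between 500 and 100000 UMIs, of which under 7.5% were mitochondrial. For contrast, 4106 kept cells with at least 10 UMIs of Cxcl12, at least 1 of Lepr and none of Cdh5 were taken as Cxcl12 Lepr cells, the marrow stromal cells that feed blood-forming cells. The ages were put together because members were few.

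The study examined how the stromal cells of bone marrow change with age. It used untreated wild-type mice, male and female, of a C57BL/Ka background, aged 2, 12 and 24 mo. Whole femurs and tibias were crushed and digested with enzymes, and cells that carried neither CD45, CD71 nor markers of blood lineages were sorted. Each age was 1 library of cells from 3 mice, and no barcode names its mouse, so ages had no replicates and age cannot be told apart from library. The crushed bones hold marrow, bone surface and whatever cartilage came loose, so the number of members per library also depends on what the digestion released. The libraries held 92342526, 84853330 and 104596341 UMIs at 2, 12 and 24 mo and left 7533, 6821 and 9727 kept cells. Between 20 and 30 barcodes were shared by any pair of libraries. None of these pairs joined 2 members, and 1 member's barcode occurred in another library.

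Growth plate and joint cartilage are built by chondrocytes, which secrete fibrils of collagens II, IX and XI and fill them with aggrecan, the proteoglycan encoded by Acan. The transcription factor SOX9, with SOX5 and SOX6, switches on these genes, and in the growth plate Indian hedgehog and the receptor for parathyroid hormone-related protein time the passage to hypertrophy. Osteoblasts line bone surfaces and secrete collagen I together with osteocalcin, the product of Bglap, under RUNX2 and osterix (Sp7), and those that become buried in bone turn into osteocytes.

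The counts that chose the members are given as a description. Among chondrocytes Acan ran from 3 to 119 UMIs per cell with a median of 49, and Col2a1 from 7 to 1390 with a median of 322.5. Among osteoblasts Bglap ran from 27 to 3663 with a median of 785.5, and Col1a1 from 145 to 4760 with a median of 2251.5. Most members thus lay far above the limits. The lowest chondrocytes held 3, 4 and 4 Acan UMIs, and the lowest osteoblasts 27, 29 and 40 Bglap UMIs. Just outside the limits of chondrocytes, 5 kept cells had enough Acan but under 5 Col2a1 UMIs, and 1 had enough Col2a1 but a lone Acan UMI. Just outside those of osteoblasts, 3 had enough Bglap with 25 to 49 Col1a1 UMIs and 5 had enough Col1a1 with 10 to 19 Bglap UMIs. The last 5 include 1 chondrocyte of the 2-mo-old library, with 16 Bglap, 2306 Col1a1 and 11 Acan UMIs. Among cells with under 2 Acan UMIs, 30 had enough Col1a1 but under 20 Bglap UMIs, and 8 enough Bglap but under 50 Col1a1 UMIs. Of the first 5 cells, 1 from the 2-mo-old library also met the limits of Bglap and Col1a1, and it joined neither arm because of its Acan UMIs. None of the 36 osteoblasts held an Acan UMI, although the rule allowed 1.

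**Figure D1:**
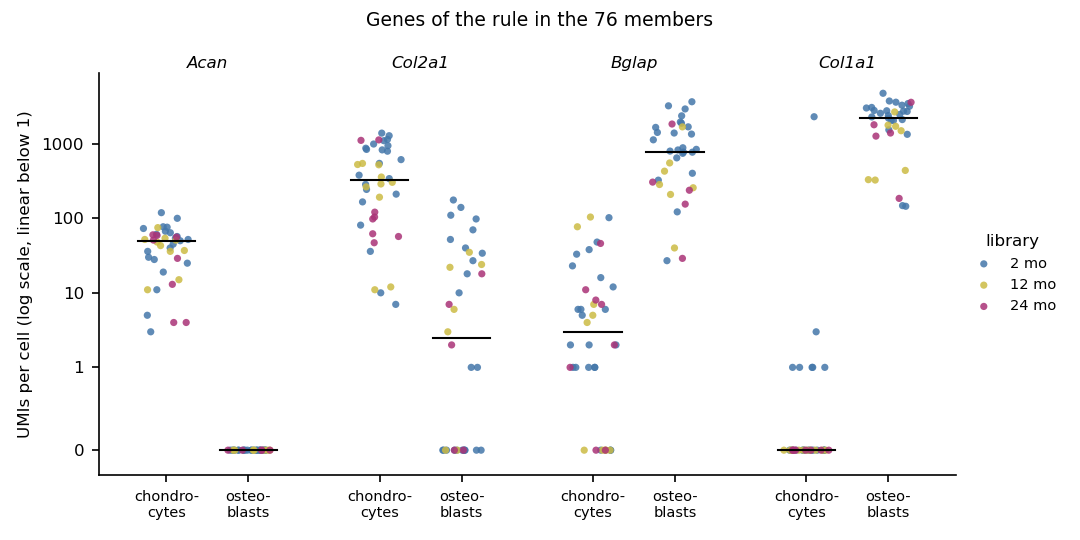
UMIs per cell of the 4 genes that chose the members, on a log axis that is linear below 1, for the 40 chondrocytes and 36 osteoblasts, with each point a cell coloured by library and the bar at the median. Acan is at 0 in every osteoblast, Col1a1 is at 0 in 33 of 40 chondrocytes, Col2a1 is present in 21 of 36 osteoblasts and Bglap in 30 of 40 chondrocytes.

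The start regions of 4 genes give the sequence around the genes that part the arms. Acan and Bglap are shown because they chose the members. Ucma and Epyc, cartilage matrix genes at 0 in every osteoblast, were added after their values had been seen. Each run holds the 250 bases before and 50 after the start of the RefSeq gene in GRCm38.p6, 5′ to 3′ on the gene's strand. They lie at chr7:79052976-79053275 on the plus strand (Acan), chr3:88384417-88384716 on the minus strand (Bglap), chr2:4975872-4976171 on the plus strand (Ucma) and chr10:97643818-97644117 on the plus strand (Epyc, the first of 2 entries). Capitals mark the RUNX core ACCACA and the SOX core AACAAT on either strand (TGTGGT and ATTGTT).
Acan: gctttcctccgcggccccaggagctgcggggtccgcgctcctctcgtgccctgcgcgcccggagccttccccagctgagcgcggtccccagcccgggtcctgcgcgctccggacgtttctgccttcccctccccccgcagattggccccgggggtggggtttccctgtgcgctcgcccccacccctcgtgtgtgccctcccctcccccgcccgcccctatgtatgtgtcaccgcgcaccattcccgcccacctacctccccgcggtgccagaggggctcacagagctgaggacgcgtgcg
Bglap: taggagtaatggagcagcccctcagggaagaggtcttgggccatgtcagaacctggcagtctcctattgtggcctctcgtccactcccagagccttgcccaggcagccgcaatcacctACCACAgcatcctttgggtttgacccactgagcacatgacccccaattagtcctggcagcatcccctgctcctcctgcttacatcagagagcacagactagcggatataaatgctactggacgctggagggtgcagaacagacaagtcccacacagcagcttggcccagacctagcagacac
Ucma: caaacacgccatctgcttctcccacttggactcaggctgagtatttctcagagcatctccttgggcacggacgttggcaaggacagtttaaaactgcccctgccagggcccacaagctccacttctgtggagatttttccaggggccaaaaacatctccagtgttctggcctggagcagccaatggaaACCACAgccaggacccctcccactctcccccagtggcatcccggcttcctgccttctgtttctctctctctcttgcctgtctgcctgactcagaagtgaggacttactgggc
Epyc: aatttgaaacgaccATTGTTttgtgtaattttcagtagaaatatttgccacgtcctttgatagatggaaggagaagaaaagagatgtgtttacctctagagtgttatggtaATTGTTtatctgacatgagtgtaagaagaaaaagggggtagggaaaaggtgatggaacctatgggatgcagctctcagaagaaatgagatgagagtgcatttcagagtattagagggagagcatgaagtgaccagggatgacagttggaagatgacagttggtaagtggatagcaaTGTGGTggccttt
The RUNX core stood 132 bases before the start of Bglap, 62 before that of Ucma and 38 after that of Epyc. Epyc also held the SOX core 236 and 139 bases before its start, and Acan held neither. Of 32851 promoters of the same length, 16.8% held the RUNX core and 10.7% the SOX core, and binding at these letters was not measured.

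Both labels were checked against 12 markers each, of which 2 in either list had chosen the cells, so sums are given without those 2. Levels are given as CPM, the UMIs of a gene summed over all cells of an arm in a library and scaled to a common total, which compares a gene between groups but takes no account of transcript length between genes. The other 10 chondrocyte markers summed to between 30458 and 36510 CPM in chondrocytes, 4065 to 6197 in osteoblasts and 96.9 to 212 in Cxcl12 Lepr cells, and all 10 were present in chondrocytes. The other 10 osteoblast markers summed to between 119106 and 160551 CPM in osteoblasts, 798 to 19410 in chondrocytes and 5672 to 8276 in Cxcl12 Lepr cells. Markers of other cells differed in level. Ptprc, the gene of CD45, was at 0 in all 76 cells, as were the 3 muscle markers, and the 6 endothelial markers summed to at most 7.0 CPM. Pericyte and Schwann cell markers were at 0 in osteoblasts and reached 49.0 and 28.8 CPM in chondrocytes. The 4 fibroblast markers reached 138 CPM in chondrocytes and 58.2 in osteoblasts, both at 2 mo. The 4 osteoclast markers summed to between 211 and 294 CPM in osteoblasts, with a UMI in 35 of 36 cells, 48.0 to 107 in chondrocytes and 127 to 187 in Cxcl12 Lepr cells, but Ocstamp and Mmp9 among them were at 0 in both arms. Myeloid and megakaryocyte markers reached at most 35 CPM in either arm and B cell markers 1.82. Of the 8 markers of LepR+ cells, 8 had a UMI in chondrocytes and 7 in osteoblasts, with sums of at most 451 and 373 CPM against at least 25122 in Cxcl12 Lepr cells.

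Hemoglobin RNA was the exception. The 6 erythroid markers summed to between 1632 and 42394 CPM in chondrocytes and 3455 to 105029 in osteoblasts, highest at 2 mo in both, and to 8470 to 120634 in Cxcl12 Lepr cells. At least 1000 Hbb-bs UMIs stood in 2 chondrocytes and 3 osteoblasts. In 199 kept cells with at least 2 Ptprc UMIs, which mark blood cells, 6 cells (3.02%) held a Bglap UMI with at most 4 per cell, 10 held Col1a1 with at most 14, 1 held Col2a1 and none held Acan, at a median depth of 10365 UMIs. These counts per cell lay below the limits that chose the members. Other bone genes were found there in more cells, Spp1 in 34 (17.1%) with up to 344 UMIs, Sparc in 18 with up to 84 and Ibsp in 11 with up to 68, and the part of such background in the levels of these 3 genes was not tested. The arms were alike in depth, with a median of 15382 UMIs and 3633.5 genes in a chondrocyte and 17764 UMIs and 3160 genes in an osteoblast, against 4902 UMIs and 2247 genes in a Cxcl12 Lepr cell.

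Chondrocytes and osteoblasts differed first in their matrix genes. Levels were compared within each library, and a gene was counted as higher in an arm where its CPM was at least 2-fold higher in each of the 3 libraries, with counts under 3 in the lower arm set to 3. The genes that chose the cells were left out of all counts. No p-value is given, because the cells were chosen by expression and the libraries are not replicates. Of 7279 genes with a mean of at least 10 CPM, 250 (3.43%) were higher in chondrocytes and 182 (2.5%) in osteoblasts, together 5.93%, and the median log2 ratio of chondrocytes to osteoblasts was 0.31. This balance depended on scaling, since the 10 leading genes took 37.6 to 44.4% of the UMIs of osteoblasts and 17.1 to 25% of those of chondrocytes. Chondrocytes held 57.9% of the calls as given, 38.8% (159 against 251) when the rule genes and the 20 genes with most UMIs were left out of the totals, and 47.0% (198 against 223) with median-of-ratios scaling, and the median log2 ratio moved to -0.10 and 0.09.

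**Figure D2:**
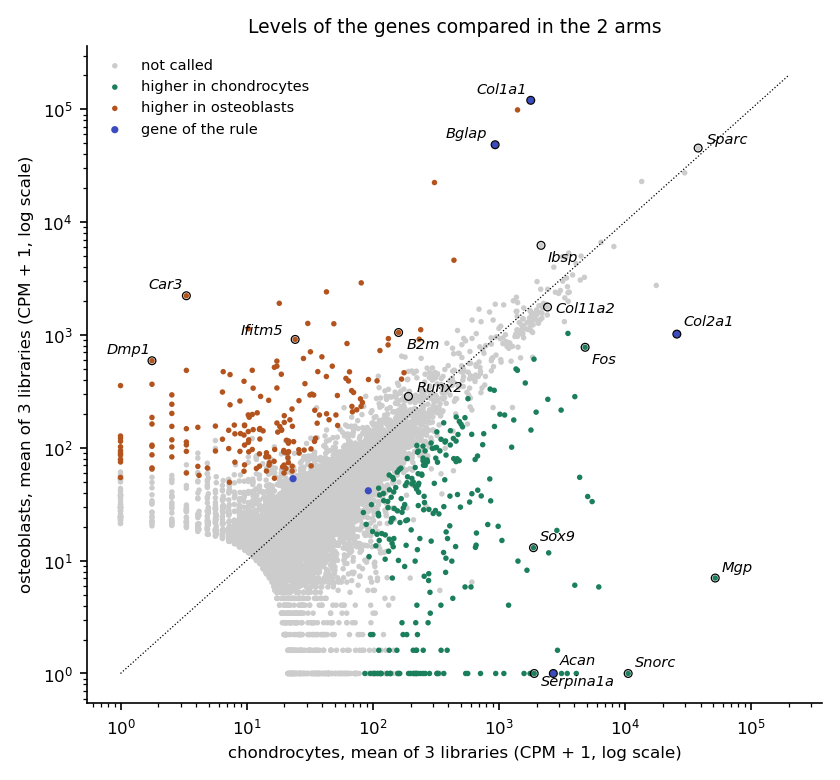
Mean CPM over the 3 libraries (plus 1, log axes) of the genes compared, chondrocytes on the x axis and osteoblasts on the y axis, with green for the 250 genes at least 2-fold higher in chondrocytes in each library, orange for the 182 higher in osteoblasts, grey for the rest and blue for the genes that chose the chondrocytes, osteoblasts and Cxcl12 Lepr cells. Mgp and Snorc lie far to the lower right, Car3 and Dmp1 to the upper left, and Sparc sits high in both near the dotted line of equal levels.

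Collagens divided the arms in part. Of 7 cartilage collagen genes compared, 4 were higher in chondrocytes and none in osteoblasts, with a median log2 ratio of 7.04. Col9a1, Col9a2 and Col9a3 encode the chains of collagen IX, which decorates collagen II fibrils. Col9a1 stood at 3436, 1807 and 2246 CPM at 2, 12 and 24 mo in chondrocytes and at 5.45, 26.7 and 0 in osteoblasts. Col9a3 stood at 5921, 3824 and 2658 CPM in chondrocytes and was 0 in every osteoblast, so it was at least 54.6-fold higher in each library. The chains of collagen XI, which nucleates the fibril, did not follow. Col11a1 was 5849, 3957 and 4578 CPM in chondrocytes and 2492, 3474 and 3764 in osteoblasts. Col11a2 was 2420, 2514 and 2399 CPM in chondrocytes and 1545, 1363 and 2401 in osteoblasts, with the ranges touching at 24 mo. Both were nearly absent from Cxcl12 Lepr cells, at 10.9 to 40.5 and 0.716 to 1.01 CPM, and both were higher in either arm than there in every library, with 61.5-fold for Col11a1 in osteoblasts at 2 mo as the lowest ratio. Col11a2 had a UMI in all 40 chondrocytes and 35 of 36 osteoblasts. Col10a1, the collagen of hypertrophic cartilage, was seen in 4 chondrocytes only, at 53.6, 0 and 355 CPM.

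Proteoglycans and matrix proteins of cartilage were also far apart. Of 18 compared, 13 were higher in chondrocytes and none in osteoblasts, with a median log2 ratio of 6.24 against 0.31 over all genes. Snorc, a small membrane proteoglycan of cartilage, was 6157, 10155 and 15690 CPM in chondrocytes and 0 in every osteoblast, at least 253-fold higher in each library. Matn3, which bridges collagen fibrils and aggrecan, was 2128, 1800 and 1401 CPM against 0, and Ucma, a vitamin K-dependent protein of resting cartilage, 1168, 1100 and 576 CPM against 0. These 3 genes were absent from all 36 osteoblasts and present in 39, 33 and 35 of 40 chondrocytes. Epyc, a small leucine-rich proteoglycan, was 434, 301 and 365 CPM against 0. Hapln1, the link protein that ties aggrecan to hyaluronan, was 4257, 2731 and 5077 CPM in chondrocytes and at most 13.4 in osteoblasts. Comp, a pentameric matrix protein, was 4455, 5442 and 5374 CPM and at most 93.5 in osteoblasts. Prg4, the lubricin gene of the joint surface, was at 0 in both arms and at 40.5, 801 and 153 CPM in Cxcl12 Lepr cells.

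Mgp had the largest ratio of mean CPM of any gene higher in chondrocytes. It encodes matrix Gla protein, an inhibitor of mineralization. Chondrocytes held 20851, 92942 and 43252 CPM with a UMI in 39 of 40 cells, and osteoblasts held 1.82, 0 and 16.2 CPM with a UMI in 2 of 36. Cxcl12 Lepr cells stood between, at 992, 7730 and 6778 CPM. Sparc, a collagen-binding glycoprotein of both tissues, did not part the arms, with 32612, 32552 and 49787 CPM in chondrocytes and 44066, 48311 and 43816 in osteoblasts. It stood at 2322, 1373 and 962 CPM in Cxcl12 Lepr cells, so either arm was at least 14-fold higher in each library.

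Bone matrix genes ran the other way. Of 23 compared, 13 were higher in osteoblasts and 1, Mgp, in chondrocytes, with a median log2 ratio of chondrocytes to osteoblasts of -3.47. Col1a2, the partner chain of Col1a1 in collagen I, was 86445, 86347 and 123889 CPM in osteoblasts and 4068, 140 and 28.8 in chondrocytes. Bglap2, another osteocalcin gene, was 24019, 20788 and 22549 CPM against 338, 406 and 182. Of the 91-base windows of the Bglap transcript, 60.0% also occur in Bglap2 and none in Bglap3. A read within a shared window cannot tell Bglap from Bglap2, and how such reads entered the counts was not tested. Bglap3 itself was 1084, 1269 and 1054 CPM in osteoblasts and 14, 14 and 0 in chondrocytes. Car3, a carbonic anhydrase, was 2076, 2579 and 2028 CPM in osteoblasts and had a UMI in 1 chondrocyte. Serpinf1, whose loss causes brittle bone, was 3260, 1510 and 2466 CPM against 74.6, 42.0 and 9.60. Ibsp and Spp1, bone sialoprotein and osteopontin, were not 2-fold apart in every library. Ibsp was 4025, 7535 and 7138 CPM in osteoblasts, 2480, 0 and 4031 in chondrocytes and 4381, 2686 and 3059 in Cxcl12 Lepr cells, so the osteoblast and Cxcl12 Lepr ranges overlapped. Spp1 was 8745, 2365 and 1736 CPM in osteoblasts and 11789, 21.0 and 557 in chondrocytes.

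Genes outside the matrix lists also parted the arms. Nrp2, a co-receptor for semaphorins, was 887, 1710 and 1200 CPM in osteoblasts and 58.3, 21.0 and 9.60 in chondrocytes. Fxyd2, a subunit of the sodium pump, led the other side outside the lists with 2742, 3656 and 1833 CPM in chondrocytes and 0 in osteoblasts.

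The transcription factors were parted less evenly than their targets. Sox9 was 1368, 2304 and 1996 CPM in chondrocytes, in 39 of 40 cells, and 3.64, 0 and 32.4 CPM in osteoblasts, in 3 of 36. Sox8, a close relative, was 88.6, 91 and 106 CPM against 0, and of 9 cartilage factors compared, 3 were higher in chondrocytes and none in osteoblasts. Sox5, at 159, 364 and 76.8 CPM against 0, missed the rule in a library where 3 counts in osteoblasts correspond to 48.7 CPM. Among 11 osteoblast factors, 2 were higher in osteoblasts and none in chondrocytes. Creb3l1, which drives the secretory machinery for collagen I, was 278, 267 and 324 CPM in osteoblasts and 105, 21.0 and 28.8 in chondrocytes. Runx2 was 176, 321 and 357 CPM in osteoblasts, 196, 168 and 211 in chondrocytes and 332, 360 and 334 in Cxcl12 Lepr cells, so that osteoblasts overlapped both other groups and chondrocytes lay below Cxcl12 Lepr cells. Sp7 was 175, 134 and 389 CPM in osteoblasts and 88.6, 49.0 and 115 in chondrocytes, a ratio of chondrocytes to osteoblasts of 0.296 to 0.508. It was at least 2.50-fold higher in osteoblasts than in Cxcl12 Lepr cells in each library.

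Sugar chains of aggrecan need a synthesis route of their own. Of 21 genes for sulfated glycosaminoglycans, 6 were higher in chondrocytes and none in osteoblasts, with a median log2 ratio of 1.37. Xylt1 starts the chain and stood at 231, 553 and 489 CPM in chondrocytes and 0, 26.7 and 0 in osteoblasts. Chst11, which sulfates chondroitin, was 441, 805 and 518 CPM against 23.6, 40.1 and 32.4. Papss2, which makes the sulfate donor, was 520, 847 and 470 CPM against 36.4, 13.4 and 64.9, and Slc26a2, the sulfate importer whose loss stunts cartilage, 282, 350 and 240 against 25.5, 0 and 16.2. All of these genes were called at least 2-fold higher in each library, so ranges that did not overlap between the arms add no support.

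Of 32 genes that fold and secrete collagen, 1 was higher in chondrocytes and 1 in osteoblasts, a share near the 5.93% of all genes, with a median log2 ratio of -0.03. Plod2, a lysyl hydroxylase of collagen, was 863, 959 and 1036 CPM in chondrocytes and 553, 721 and 714 in osteoblasts, and Serpinh1, the collagen chaperone HSP47, 2056, 1184 and 912 against 2029, 2231 and 2222. Enzymes that act on the secreted fibril differed more, with 4 of 9 higher in osteoblasts and 1 in chondrocytes. Lox, which crosslinks collagen, was 627, 548 and 681 CPM in osteoblasts and 72.3, 0 and 9.60 in chondrocytes. Pcolce2, an enhancer of procollagen cleavage, was 1163, 1814 and 5720 CPM in chondrocytes and 36.4, 0 and 16.2 in osteoblasts. Small leucine-rich proteoglycans, which bind to fibrils, split as 5 of 10 higher in chondrocytes, among them Fmod at 755, 784 and 269 CPM against 14.5, 0 and 0, and 1 in osteoblasts, Dcn, at 4605, 4850 and 4348 CPM against 289, 56.0 and 979. Of 21 matrix proteases and inhibitors, 5 were higher in each arm. Timp3 was 254, 658 and 1545 CPM in chondrocytes and 27.3, 0 and 32.4 in osteoblasts, whereas the gelatinase Mmp2 was 429, 347 and 568 in osteoblasts and 46.6, 7.0 and 0 in chondrocytes.

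Among receptors of growth plate signals, Pth1r, for parathyroid hormone and its related protein, was found in both arms. It had a UMI in all 36 osteoblasts and 38 of 40 chondrocytes. Its level was 1077, 973 and 2178 CPM in chondrocytes, 469, 387 and 600 in osteoblasts and 135, 188 and 90.8 in Cxcl12 Lepr cells, and was thus higher in chondrocytes than in osteoblasts and higher in either than in Cxcl12 Lepr cells. Ptch1, a hedgehog receptor and target, was 380, 658 and 374 CPM in chondrocytes and 18.2, 13.4 and 81.1 in osteoblasts. Fgfr3 was 126, 301 and 240 CPM in chondrocytes and 0 in osteoblasts, while Fgfr2 was 32.7, 80.2 and 81.1 CPM in osteoblasts and 9.32, 14 and 9.60 in chondrocytes. No other gene of these pathways was called. Higher in chondrocytes were thus 2 of 8 hedgehog and PTHrP genes and 1 of 10 FGF and IGF genes, and higher in osteoblasts 0 and 1. Of all genes compared, 3.43% were higher in chondrocytes and 2.5% in osteoblasts.

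In the BMP and TGF-beta list 5 of 26 genes were higher in chondrocytes and 2 in osteoblasts. Bmp3, a member that opposes other BMPs, was 207, 387 and 470 CPM in osteoblasts, in 31 of 36 cells, and 0 in all chondrocytes. The target gene Id1 was 639, 476 and 883 CPM in chondrocytes and 36.4, 13.4 and 0 in osteoblasts. Of 20 Wnt genes 3 were higher in osteoblasts and none in chondrocytes, among them Wif1, a secreted inhibitor, at 87.3, 93.5 and 146 CPM against 25.6, 7.0 and 28.8. Tnfrsf11b, the decoy receptor osteoprotegerin that restrains osteoclasts, was 83.9, 567 and 173 CPM in chondrocytes and 5.45, 0 and 0 in osteoblasts.

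Part of the glycolysis genes and most early response genes were higher in chondrocytes. Of 18 glycolysis and hypoxia genes 7 were higher there and none in osteoblasts, with a median log2 ratio of 1.57. Gapdh was 814, 539 and 480 CPM in chondrocytes and 175, 120 and 97.3 in osteoblasts. Eno1 was 413, 329 and 163 CPM against 32.7, 26.7 and 16.2. Of 21 immediate early and heat shock genes, which are known to respond to cell dissociation, 15 were higher in chondrocytes and none in osteoblasts, with a median log2 ratio of 2.82. Fos was 4420, 4923 and 5230 CPM in chondrocytes, with a UMI in 36 of 40 cells, and 1165, 387 and 779 in osteoblasts, with a UMI in 22 of 36. Egr1 was 1380, 2066 and 2505 CPM against 151, 240 and 227. The part of the digestion in these levels was not tested. With the 6% of cells of highest doublet score removed, which left 22 chondrocytes and 31 osteoblasts, 3 glycolysis and 10 immediate early genes were above the 2-fold limit in chondrocytes, and none of the hypertrophic or the hedgehog and PTHrP list was.

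**Figure D3:**
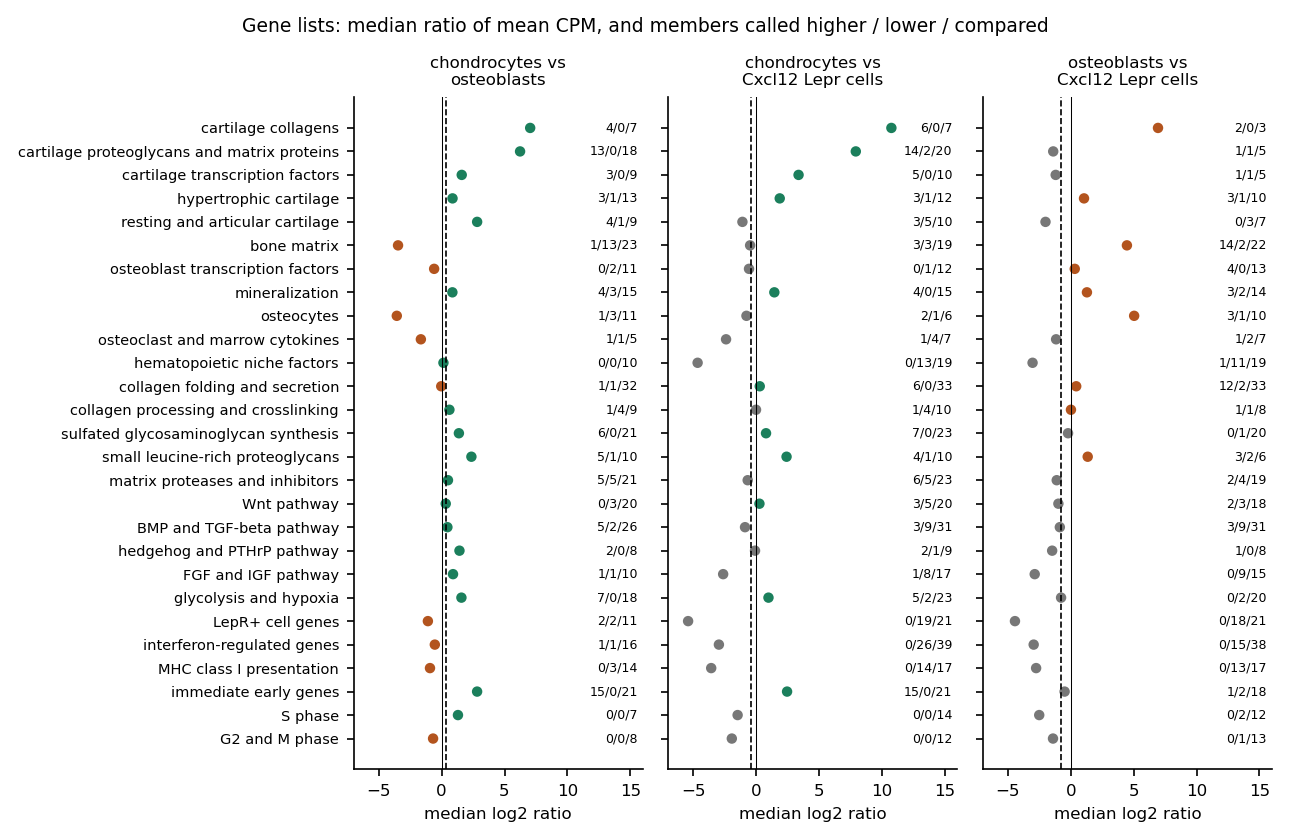
Median log2 ratio of each gene list in 3 comparisons, chondrocytes against osteoblasts, chondrocytes against Cxcl12 Lepr cells and osteoblasts against Cxcl12 Lepr cells, with the dashed line at the median of all genes compared (0.31, -0.45 and -0.80) and the numbers giving genes higher, lower and compared. Points are green, orange or grey where the median lies on the side of chondrocytes, osteoblasts or Cxcl12 Lepr cells. The cartilage collagen and proteoglycan lists lie far to the chondrocyte side, and bone matrix lies to the osteoblast side. Hypertrophic cartilage lies nearer the dashed line, at 0.87 for chondrocytes against osteoblasts. Resting and articular cartilage lies at 2.82 against osteoblasts but at -1.10 against Cxcl12 Lepr cells, with 3 genes higher in chondrocytes and 5 lower. Collagen folding lies near the line between the arms. The LepR+ cell, MHC class I and interferon lists lie far to the side of Cxcl12 Lepr cells.

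Chondrocytes were not a uniform group. The growth plate signal Ihh was found in 6 chondrocytes, with 1 to 16 UMIs, of which 3 were from 2 mo, 1 from 12 mo and 2 from 24 mo, and in no osteoblast or Cxcl12 Lepr cell. Pth1r held 36 to 106 UMIs in these 6 cells with a median of 79.5, and 0 to 62 with a median of 8 in the other 34. Alpl, the phosphatase that frees phosphate for mineral, held a median of 35 UMIs against 0, and Panx3, a channel of prehypertrophic cartilage, 19 against 1. The 6 cells were also deeper, with a median of 22398 UMIs against 14561.5, but as CPM their median Pth1r was 3628 against 544. Col2a1 stayed high in them, at a median of 1135 UMIs against 274.5, and Chad at 214.5 against 31. Col10a1 was present in 3 of the 6 and in 1 of the 34. None of the 6 held Mmp13, the collagenase of late hypertrophy, or more than 1 UMI of Spp1. A chondrocyte of the 2-mo-old library held instead 186 Mmp13, 844 Spp1 and 18 Col10a1 UMIs with 3 Acan and 7 Col2a1 UMIs, the lowest values of both rule genes.

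Mgp and Col2a1 ran in opposite directions across chondrocytes. At least 1000 Mgp UMIs stood in 8 cells, which held a median of 114 Col2a1 UMIs against 368.5 in the other 32, of 27 Acan against 51.5 and of 4.5 Matn3 against 34.5. Snorc, with 173 against 90.5, and Cytl1, a secreted factor of cartilage, with 47 against 2, were higher in these 8. Spearman's rho of CPM across the 40 chondrocytes was -0.57 for Col2a1 with Mgp, 0.61 for Col2a1 with Matn3, 0.69 for Pth1r with Alpl and 0.67 for Snorc with Pcolce2. Over the 37 cells left without the 3 of fewest UMIs the same values were -0.54, 0.67, 0.63 and 0.63. These are descriptions of cells that share libraries and a common total, of which Mgp alone took as much as 235863 CPM in a cell.

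Bone genes in chondrocytes came from few cells. Col1a1 was at 0 in 33 of 40 and at most 3 UMIs in 6 others. The remaining cell, from the 2-mo-old library, held 2306 Col1a1, 1664 Col1a2, 1032 Ibsp and 1571 Spp1 UMIs with 11 Acan and 10 Col2a1 UMIs, and it carried 99.7% of the Col1a1, 95.4% of the Col1a2 and 97.0% of the Ibsp UMIs of the chondrocytes at 2 mo. At 24 mo 1 chondrocyte likewise held 374 of 420 Ibsp UMIs. Whether the cell with 2306 Col1a1 UMIs was 1 cell or a chondrocyte and an osteoblast in 1 droplet was not tested. Without that cell of the 2-mo-old library, 254 genes were higher in chondrocytes and 200 in osteoblasts. Bglap, in contrast, was spread more widely. At least 20 Bglap UMIs stood in 8 chondrocytes, 23 to 104 with a median of 47, and these held at most 1 Col1a1 and 8 Col1a2 UMIs. Ibsp was in 2 of them, with up to 374 UMIs, and Spp1 in 2, with up to 2622. The cell with 2622 held 51.8% of the Spp1 UMIs of chondrocytes at 2 mo.

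Some osteoblasts in turn held a cartilage collagen. Col2a1 was found in 21 of 36 osteoblasts, with 1 to 176 UMIs and a median of 24, and was at 50 or more in 6. All 36 lacked Col9a3, Matn3, Cnmd and Snorc, as well as Acan, which the rule itself kept under 2 UMIs, and Col9a1 reached 1 UMI at most. Osteoblasts with and without Col2a1 were alike in depth, with medians of 17664 and 18423 UMIs. Their medians were 826 and 647 UMIs for Bglap, 2112 and 2674 for Col1a1 and 32 and 33 for Col11a2. As CPM over the arm Col2a1 was 1413, 1202 and 438 in osteoblasts, against 3.48, 30.5 and 7.16 in Cxcl12 Lepr cells and 0.306 in the cells with Ptprc. In chondrocytes Snorc stood at 6157 CPM or more beside Col2a1, and in osteoblasts it was at 0.

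Genes of osteocytes were uneven among osteoblasts. Dmp1 and Phex, genes that act in the control of phosphate, had UMIs in 16 and 29 of 36. Dmp1 stood at 124, 107 and 1541 CPM and Phex at 207, 281 and 1638, and both were at most 86.4 CPM in chondrocytes. The levels at 24 mo rested mostly on 1 cell, with 93 Dmp1 and 85 Phex UMIs. The other osteoblasts of that library held at most 1 Dmp1 and 13 Phex UMIs. Of 17 osteocyte genes the median osteoblast held 1 at 5 UMIs or more. A cell of the 2-mo-old library held 7, with 46 Phex, 32 Ptprz1 and 23 Dkk1 UMIs but no Dmp1, and also 12 UMIs of Wif1, which is outside the list. A cell of the 24-mo-old library held 5, with 93 Dmp1, 85 Phex and 33 Ptprz1 UMIs, 155 Bglap and no Car3. Sost and Fgf23, which mark mature osteocytes, were at 0 in all 76 cells. Ifitm5, a membrane protein of bone-forming cells, was in contrast even, at 833, 949 and 957 CPM with a UMI in 35 of 36. Spp1 was uneven, with a median of 4.5 UMIs and 2266 in the highest cell. Spearman's rho of CPM across the 36 osteoblasts was 0.11 for Bglap with Col1a1, both cut off from below by the rule, and -0.25 for Bglap with Ibsp.

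**Figure D4:**
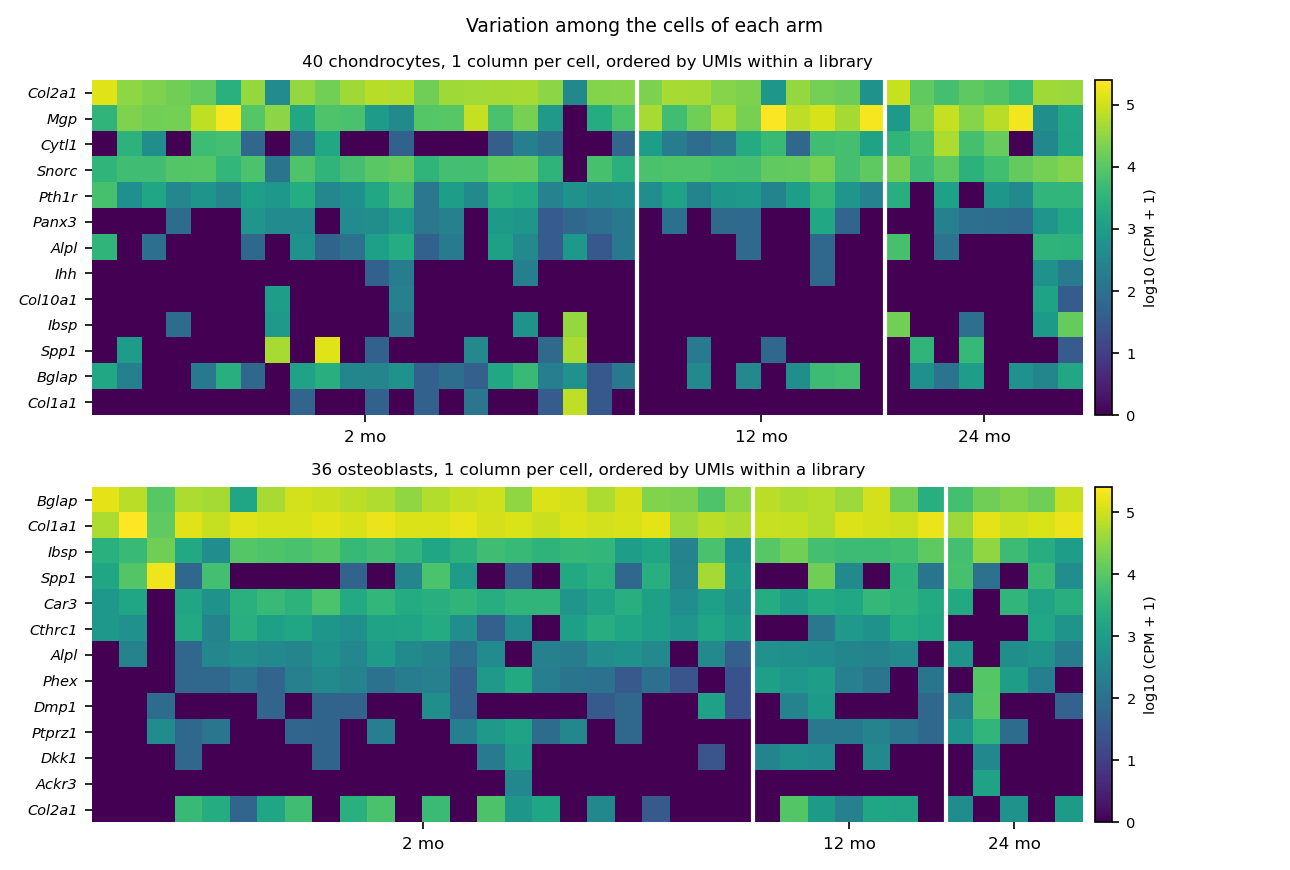
Levels of 13 genes chosen for each arm in the 40 chondrocytes (top) and the 36 osteoblasts (bottom), as log10 of CPM plus 1, with cells in columns ordered by UMIs within each library. Chondrocytes with Ihh also hold Pth1r, Alpl and Panx3, 1 chondrocyte at 2 mo holds Col1a1 and Ibsp, Col2a1 comes and goes among osteoblasts, and Dmp1 and Phex are high in few.

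Against Cxcl12 Lepr cells, each arm stood high in its matrix genes and low in genes of the niche. Of 8680 genes compared, 331 (3.81%) were higher in chondrocytes and 633 (7.29%) in Cxcl12 Lepr cells, together 11.1%. Of 8265 compared for osteoblasts, 177 (2.14%) and 452 (5.47%) were, together 7.61%. The share of calls on the side of the arm moved from 34.3% to 45.3% (399 against 481) for chondrocytes with median-of-ratios scaling. For osteoblasts it moved from 28.1% to 48.5% (261 against 277), and to 52.7% (266 against 239) without the rule genes and the 20 leading genes in the totals. The median log2 ratio of all genes moved from -0.45 to -0.15 or -0.31 and from -0.80 to -0.27 or -0.28. Cxcl12 Lepr cells were shallower but far more numerous, so that their summed counts were the deeper ones.

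Of 33 genes for collagen folding and secretion, 12 were higher in osteoblasts than in Cxcl12 Lepr cells and 2 lower, and 6 were higher in chondrocytes and none lower. Plod2 was 61.7, 79.5 and 62 CPM in Cxcl12 Lepr cells, at least 12.1-fold lower than in chondrocytes and 8.96-fold lower than in osteoblasts in each library. The export factors Sec23a, Sec24d and Lman1 and the retrieval receptors Kdelr2 and Kdelr3 were higher in osteoblasts, whereas the chaperone gene Hspa5, at 275, 307 and 243 CPM, was lower than the 910, 772 and 611 of Cxcl12 Lepr cells. Of 22 bone matrix genes 14 were higher in osteoblasts and 2, Mgp and Ogn, in Cxcl12 Lepr cells.

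Most niche factors were lower in both arms than in Cxcl12 Lepr cells. Of 19 compared, 13 were higher in Cxcl12 Lepr cells than in chondrocytes and 11 than in osteoblasts, with 0 and 1 in the other direction. Kitl, the stem cell factor gene, was 2450, 1946 and 1787 CPM in Cxcl12 Lepr cells, 2.33, 0 and 9.60 in chondrocytes and 1.82, 13.4 and 0 in osteoblasts. Il7, Angpt1 and Vcam1 were at most 28.8 CPM in either arm. The list also holds Spp1, which made up most of its sum of 12377 CPM in chondrocytes and 9124 in osteoblasts at 2 mo. Cxcl12, which chose the comparison cells, stood at 53.6, 77.0 and 144 CPM in chondrocytes and 43.6, 13.4 and 64.9 in osteoblasts. Csf1, a growth factor of macrophages and osteoclasts, reached 80.2 CPM in osteoblasts against 288 to 427 in Cxcl12 Lepr cells. The gene that went the other way was Tgfb1, a growth factor stored in bone, at 113, 200 and 162 CPM in osteoblasts and 32.3, 48.2 and 30.8 in Cxcl12 Lepr cells.

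Genes of antigen presentation and of the interferon response were low in both arms. Of 17 MHC class I genes compared, 14 were higher in Cxcl12 Lepr cells than in chondrocytes and 13 than in osteoblasts, with none in the other direction. B2m, the common light chain, was 2797, 3002 and 2489 CPM in Cxcl12 Lepr cells, 391, 2017 and 746 in osteoblasts and 119, 140 and 221 in chondrocytes. H2-D1, a heavy chain, was 5848, 5060 and 4028, then 249, 1430 and 503, then 74.6, 112 and 154 CPM in the same order. B2m, H2-D1 and H2-T23 were also higher in osteoblasts than in chondrocytes, 3 of 14 genes. Of 39 interferon-regulated genes 26 were higher in Cxcl12 Lepr cells than in chondrocytes, and of 38 compared 15 were higher than in osteoblasts, with none in the other direction. Under both other scalings the last count was 8.

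Members were a smaller share of the kept cells at 24 than at 2 mo. Chondrocytes were 22, 10 and 8 cells at 2, 12 and 24 mo, or 0.292% (95% Clopper-Pearson interval 0.183 to 0.442), 0.147% (0.0703 to 0.269) and 0.0822% (0.0355 to 0.162). Osteoblasts were 24, 7 and 5 cells, or 0.319% (0.204 to 0.474), 0.103% (0.0413 to 0.211) and 0.0514% (0.0167 to 0.120). The intervals of 2 and 24 mo did not overlap in either arm. All intervals here cover counting error only, not the spread between mice or sorts nor, for sums of UMIs, between cells, and 1 library per age allows no test. Kept cells include blood cells that passed the sort. Per 100 Cxcl12 Lepr cells there were 1.35, 1.66 and 0.427 chondrocytes and 1.47, 1.16 and 0.267 osteoblasts, so against stromal cells the 12-mo-old library resembled that of 2 mo. Members of older libraries were also shallower, with medians of 20434, 14562 and 10955 UMIs in chondrocytes and 21698, 13342 and 12576 in osteoblasts, and fewer cells cannot be told apart from cells that fell under the limits on UMIs. The sex of members differed between libraries as well. Xist without Y-linked UMIs (female) stood in 2, 2 and 0 chondrocytes and 2, 4 and 0 osteoblasts at 2, 12 and 24 mo. Y-linked UMIs without Xist (male) stood in 17, 4 and 6 chondrocytes and 15, 0 and 5 osteoblasts. Differences between ages cannot be told apart from this.

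The genes that chose the cells were first left out of the sums of matrix lists. Cartilage proteoglycan and matrix protein genes in chondrocytes then summed to 31479, 42244 and 58693 CPM, a ratio of 24 to 2 mo of 1.86 (95% interval 1.81 to 1.92), and with Acan the ratio was 1.80 (1.75 to 1.86). At 24 mo 1 cell held 30.5% of the UMIs of the list with Acan, and the intervals leave out such spread between cells. Cartilage collagens summed to 22942, 16087 and 16055 CPM, a ratio of 0.700 (0.664 to 0.737). With Col2a1 it was 0.789 (0.764 to 0.815), which exceeded 1 when cells of high doublet score were left out. In single genes the picture was mixed. Over 1274 genes with a mean of at least 100 CPM, 9.81% were at least 2-fold higher and 10.4% lower at 24 mo, against 1.78% and 2.2% in the far more numerous Cxcl12 Lepr cells, and of 13 proteoglycan genes 3 were higher and 2 lower. Cst3, the protease inhibitor cystatin C, was 3546, 12466 and 37484 CPM, a ratio of 10.6 (9.96 to 11.2), and the median chondrocyte held 2641, 7941 and 30081 CPM. Timp3 had a ratio of 6.08 (4.74 to 7.83) and Chka, a choline kinase, 6.62 (4.04 to 11.0). Cytl1 had the highest ratio, 14.2 (12.2 to 16.5), but 1 cell held 481 of its 792 UMIs at 24 mo. Lower at 24 mo were Srm, for spermidine synthase, with a ratio of 0.102, the actin bundler Fscn1 with 0.147 and Rcn1 with 0.158, besides Col1a2, whose counts lay in the single cell described above.

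In osteoblasts bone matrix genes other than Col1a1 and Bglap summed to 181373, 179829 and 213484 CPM, a ratio of 1.18 (1.16 to 1.20), and with these 2 genes the ratio was 1.11 (1.10 to 1.13). The last value was 0.990 without the 3 osteoblasts, all of the 2-mo-old library, with at least 1000 Hbb-bs UMIs. Hemoglobin genes had the lowest ratios, 0.0296 for Hbb-bs, which stood at 65120 CPM at 2 mo and 1930 at 24 mo. The level at 2 mo rested on the same 3 cells, with 16839, 15958 and 1456 Hbb-bs UMIs. The other osteoblasts of that library held at most 187, so the ratio does not describe most cells. Over 945 genes 15% were at least 2-fold higher at 24 mo and 4.97% lower, on a median log2 ratio of 0.13. Of 18 bone matrix genes 1 was higher and 2 lower. The osteocyte list summed to 1536 CPM at 2 mo and 5126 at 24 mo, a ratio of 3.34 (2.92 to 3.80), but the median osteoblast held 1473, 1916 and 1908 CPM and 1 cell reached 26098.

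MHC class I genes summed to 539, 616 and 816 CPM in chondrocytes, a ratio of 1.51 (1.17 to 1.95), and to 1002, 4850 and 2012 CPM in osteoblasts, a ratio of 2.01 (1.64 to 2.44). The 12-mo-old osteoblasts stood highest, with a median cell of 6734 CPM against 802 at 2 mo and 2465 at 24 mo. Of these 12-mo-old cells 4 held Xist and 0 held Y-linked UMIs. At 2 and 24 mo, 15 and 5 osteoblasts held Y-linked UMIs without Xist, so this order cannot be told apart from sex. In chondrocytes the direction turned, to 0.541, when cells of high doublet score were left out, and the ratio was 1.15 without the chondrocyte described next. Interferon-regulated genes summed to 585, 434 and 1094 CPM in chondrocytes, a ratio of 1.87 (1.49 to 2.34), and to 720, 735 and 714 CPM in osteoblasts, a ratio of 0.991 (0.709 to 1.36). The chondrocytes of 24 mo held 114 UMIs of the list in all, 57 of them in 1 cell that also met the rule of Cxcl12 Lepr cells, with 11 Cxcl12, 4 Lepr and 987 Hbb-bs UMIs. Without this cell they stood at 610 CPM and the ratio was 1.04. The ratio also turned to 0.744 without cells of high doublet score, and that of osteoblasts to 1.73. The difference between the arms was not tested.

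**Figure D5:**
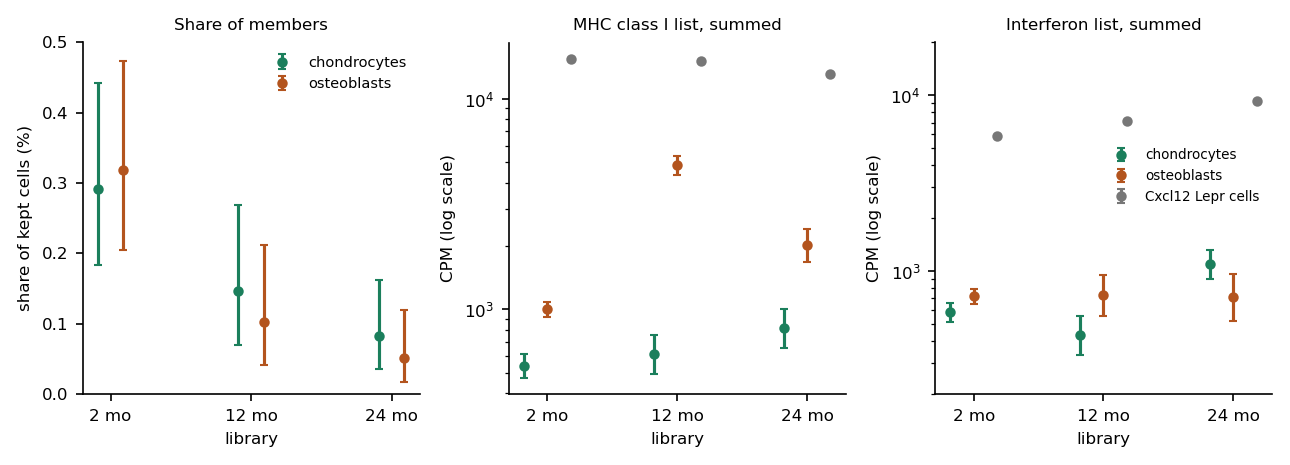
Share of kept cells that met the chondrocyte or the osteoblast rule at 2, 12 and 24 mo with 95% Clopper-Pearson intervals, and summed CPM of the MHC class I and interferon-regulated lists with exact Poisson intervals in chondrocytes, osteoblasts and Cxcl12 Lepr cells. Shares are 0.292% and 0.0822% at 2 and 24 mo for chondrocytes and 0.319% and 0.0514% for osteoblasts, and both lists lie lower in the arms than in Cxcl12 Lepr cells at each age.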

How the data were processed

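The deposited values are whole-number UMI counts per gene and cell for 32285 genes. Per the labels and the study's methods, the authors made these counts from 10x Genomics 3′ libraries with Cell Ranger 6.1.2 and its mm10 (2020-A) mouse reference. The submitters' notes also name Seurat 4.2.3 and R 4.0.2, which left no trace in these counts. Cells were kept by the study's limits on genes, UMIs and mitochondrial share. No doublets were removed in the main analysis. Scrublet in scanpy 1.11.5 marked 72, 7 and 134 of the kept cells at 2, 12 and 24 mo. Whether it worked at 12 mo, where it marked fewest, was not tested. As an alternative, the 6% of cells with the highest score were removed. Among them were 7, 6 and 5 chondrocytes and 1, 2 and 2 osteoblasts at 2, 12 and 24 mo. Whether these members were doublets was not tested. The authors' clusters and their removal of hematopoietic clusters were not used here.

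UMIs were summed per arm and library and scaled to CPM (python 3.11.15, numpy 2.4.6, scipy 1.17.1, pandas 2.3.3, matplotlib 3.10.9). Genes with a mean of at least 10 CPM over both groups were compared within each library. The calling rule was first tested on simulated counts, drawn with counting error only. They held no spread between cells, so that test does not cover calls that rest on few cells. In the lower group counts under 3 were set to 3, which is 6.99, 21.0 and 28.8 CPM in chondrocytes and 5.45, 40.1 and 48.7 CPM in osteoblasts at 2, 12 and 24 mo, so low genes could be called less easily at the older ages. Medians of lists use the same floor where a group is at 0. Ratios of 24 to 2 mo have exact conditional binomial intervals at 95%. A UMI count per cell depends on capture and on RNA content, which cannot be told apart.

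The members and the 27 gene lists (518 genes, 515 in the files) were chosen with earlier results of these data known. Named genes were the rule genes, the 12 with the largest ratio of mean CPM among those higher in each arm, the 6 with the highest CPM among those also higher than in Cxcl12 Lepr cells, up to 6 highest genes and all called genes of each list, and for age the 4 with the largest ratio in each direction among those with at least 50 UMIs. Genes named outside this rule (Prg4, Mmp13, Col10a1, Sost, Fgf23, Kitl, Il7, Angpt1, Vcam1, Ogn, Sec23a, Sec24d, Kdelr3) were chosen after their values were seen. Some genes that the rule names are not reported here. Alternatives were looser and stricter limits, a mitochondrial limit of 15%, doublet removal, other scalings, means over cells, cells thinned to 4000 UMIs, summed libraries, each library left out and another denominator for shares. Further settings were added after seeing the data and are named as such below.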

Additional observations from a re-analysis of the deposited data

Results flagged for a closer look

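Cells outside the comparisons carried the signal of the members. On matrix genes alone, 6 more cells met the rule but failed the limit of 7.5% mitochondrial UMIs, and they are in no count of the report. A chondrocyte of the 2-mo-old library had 31 Acan and 630 Col2a1 UMIs at 15.5% mitochondrial UMIs. The other 5 met the osteoblast rule, 2 at 2 mo with 1916 and 2118 Col1a1 UMIs, 1 at 12 mo with 63 and 2 at 24 mo with 441 and 800, at 8.34% to 31.8% mitochondrial UMIs. Against 5 kept osteoblasts at 24 mo, the 2 cells left out there are a larger part than the 2 beside 24 kept cells at 2 mo.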

How the results depend on the processing

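Each library counts alike in a call, and the smallest arms, with 5 and 7 osteoblasts, set what could be called, so a gene that was not called is not shown to be alike. Of 3553 ratios of named genes under the alternatives, 3291 were counted as unchanged, 112 passed the 2-fold limit anew and 150 no longer passed it. No gene called in the main analysis turned, and 68 of 209 named genes lost the call at least once. For genes not called in the main analysis a turn of direction was not checked, and they could be counted as unchanged despite it. Of 918 counts within lists 96 moved by over 1.5 times. Unless stated otherwise the cause was not tested. No paired analysis was possible because each age has 1 library, so ages share no replicates, whereas the arms were compared within each library. The limits on the matrix genes mattered little, with 43 chondrocytes and 42 osteoblasts under looser and 39 and 34 under stricter limits.

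Genes higher in chondrocytes and in osteoblasts numbered 109 and 96 once the top 6% of doublet scores were removed, which left 22 chondrocytes. They numbered 90 and 62 with cells thinned to 4000 UMIs, where fewer genes reach 3 counts, and 2098 and 623 with libraries summed, where 1 ratio decides the call. Against Cxcl12 Lepr cells the same settings gave 202 genes higher in chondrocytes and 400 lower, 165 and 187, and 805 and 2628. For osteoblasts they gave 97 higher and 179 lower, 67 and 126, and 406 and 4005. With totals that left out the rule genes and the 20 genes with most UMIs, 159 genes were higher in chondrocytes than in osteoblasts, and 266 were higher and 239 lower in osteoblasts than in Cxcl12 Lepr cells. With median-of-ratios scaling 277 were lower in osteoblasts than in Cxcl12 Lepr cells.

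Leaving out 1 library requires 2 ratios in place of 3 and gave 291 to 479 genes higher in chondrocytes and 253 to 278 in osteoblasts. Against Cxcl12 Lepr cells it gave 386 to 505 higher and 735 to 1114 lower in chondrocytes, and 211 to 244 higher and 503 to 850 lower in osteoblasts. The highest counts of genes higher in chondrocytes or in Cxcl12 Lepr cells came without the 24-mo-old library, and the 278 without the 2-mo-old library.

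The share of chondrocytes without cells of high doublet score was 0.0624% at 12 mo and 0.0328% at 24 mo. Over cells with under 2 Ptprc and under 20 Hbb-bs UMIs, which also dropped members, chondrocytes were 4, 9 and 3 cells, or 0.321%, 0.425% and 0.126% at 2, 12 and 24 mo, and osteoblasts 1, 6 and 1 cells, or 0.0803%, 0.283% and 0.0420%, so values of osteoblasts at 2 and 24 mo rest on 1 cell each.

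The ratio of 24 to 2 mo of cartilage proteoglycans in chondrocytes was 1.86 under looser limits, 1.73 under stricter limits and 1.5 as a mean over cells. It was 1.74 without members with 1000 Hbb-bs UMIs and 1.68 without the chondrocyte with over 50 Col1a1 UMIs, 1.93 without the chondrocyte that also met the Cxcl12 Lepr rule and 1.86 without the rule genes, all settings added after seeing the data. That of cartilage collagens was 0.759 under stricter limits, 0.715 as a mean over cells, 0.736 without the chondrocyte with Col1a1, 0.840 without the one that met the Cxcl12 Lepr rule, 0.700 without the rule genes and turned to 1.07 without cells of high doublet score. That of bone matrix in osteoblasts was 1.06 under looser limits and 1.18 under stricter limits, as also without members of few UMIs, another added setting, and without the rule genes. It turned to 0.870 without cells of high doublet score, to 0.919 as a mean over cells and to 0.990 without members with 1000 Hbb-bs UMIs. That of MHC class I in chondrocytes turned to 0.541 without cells of high doublet score was 2.54 as a mean over cells and 1.15 without the chondrocyte that met the Cxcl12 Lepr rule. In osteoblasts it was 2.81 and 2.6 in the first 2 settings. That of interferon-regulated genes in chondrocytes turned to 0.744 without cells of high doublet score and was 2.50 without members with 1000 Hbb-bs UMIs and 1.04 without the chondrocyte that met the Cxcl12 Lepr rule. In osteoblasts it turned to 1.73 without cells of high doublet score, 1.56 as a mean over cells and 1.81 without members with 1000 Hbb-bs UMIs.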
